A study of Mus musculus with 6 samples.

Results

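Ccl17, Ccl22 and Ccl24 are 3 secreted chemokines of the CC family that are counted among the classic products of alternatively activated macrophages, and they were followed here in peritoneal macrophages from mice with ovarian tumors. They were chosen by gene symbol, and all 3 were present among the 754 genes of the panel. The macrophages were sorted as F4/80+, CD11b+ cells from the peritoneal lavage of adult C57BL/6J mice that carried ID8 ovarian tumor cells, a mouse line that spreads over the peritoneum, for 7 weeks. One group of 3 samples came from mice given PBS, and the other group of 3 samples came from mice given nanoparticles with mouse IRF5 mRNA (IRF5-NPs), a transcription factor that favors inflammatory macrophages. Either treatment was given intraperitoneally in 2 doses, on day 1 and on day 5, and an IRF5-NP dose carried 30 µg of mRNA. All of this is as the sample labels give it. The study's methods describe particles in which IRF5 mRNA was mixed with the mRNA of IKKβ, a kinase that activates IRF5, and for this tumor model they give female albino mice of this strain, ID8 cells that express VEGF, another mRNA dose and another time of tumor growth. Whether these hold for the samples here is not given in the labels, which name IRF5 mRNA alone. No group received particles with another mRNA, so that an effect of the particle and an effect of the mRNA cannot be told apart. Whether each sample came from 1 mouse or from pooled mice is not given in the sources used here.

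Expression was measured by direct counting of color-coded probes on the NanoString nCounter platform, and the values are normalized counts, scaled by the authors to housekeeping genes. The counts behind them summed to between 683472 and 1830318 per sample, lowest in IRF5-NP replicate 3. The background was set at 2 SD above the mean of the 8 negative controls, and it lay at 79.4 normalized counts in that sample and at 25.6 to 37.8 in the others. PBS replicates 2 and 3 could not be told apart beyond sampling noise (chi-square test over the genes, 1.07 per degree of freedom, p = 0.0798) and were treated as 1 sample, so that 2 PBS and 3 IRF5-NP samples entered the tests. In both groups replicate 1 stood apart from the others, with a chi-square per degree of freedom of 158 or more against PBS replicates 2 and 3, and of 54.1 or more against IRF5-NP replicates 2 and 3. The sorting genes were well above background in every sample, Adgre1 (F4/80) at 6523 to 25506 and Itgam (CD11b) at 15177 to 36473 normalized counts. The Irf5 probe gave 2266 ± 433 normalized counts with PBS (SD, n = 2) and 2204 ± 214 with IRF5-NPs (SD, n = 3). The delivered mRNA is codon optimized, and whether this probe binds it is not given in the sources used here.

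Chemokines of this kind guide leukocytes by binding G protein-coupled receptors. Ccl17 and Ccl22 are the ligands of CCR4, a receptor of T helper 2 cells and regulatory T cells, and Ccl22 is known for drawing regulatory T cells into ovarian tumors. Ccl24, also called eotaxin-2, binds CCR3, the receptor through which eosinophils are attracted. Interleukin-4 and interleukin-13 induce these genes through the receptor subunit IL-4Rα and the transcription factor STAT6, and dendritic cells are a further source of Ccl17 and Ccl22.

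In these macrophages the CCR4 ligands were low and had lower means after IRF5-NPs. Each lay above background in all 3 PBS samples and in 1 of 3 IRF5-NP samples. The CCR3 ligand was abundant and had a higher mean. None of the 3 changes passed the adjusted threshold of 0.05 in limma's moderated test over all genes. In that test 9.55% of the 754 genes passed, 2.52% as higher and 7.03% as lower, or 19 and 53 genes. This split depended on the scaling, with 42 higher and 36 lower genes when all samples were set to a common median, 35 and 40 with quantile normalization, and 0 and 14 with scaling to the positive controls. The plot by sample shows each value with its counting error.

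**Figure D1:**
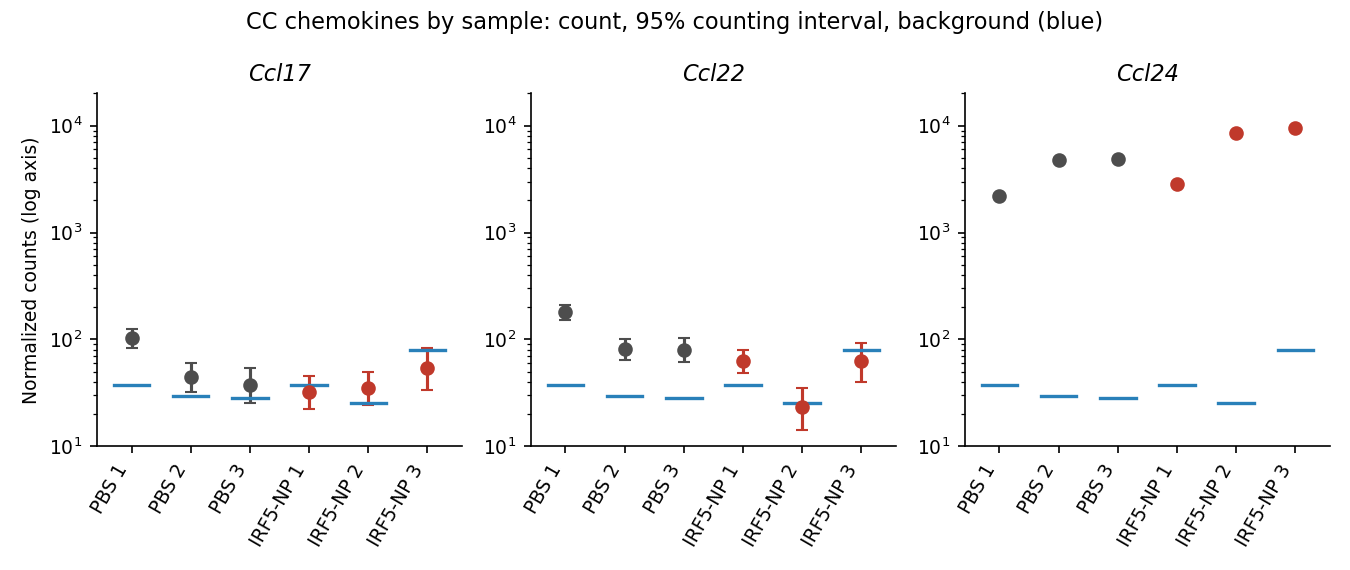
Normalized counts of Ccl17, Ccl22 and Ccl24 in each of the 6 samples on a log axis, PBS in gray and IRF5-NPs in red. Bars are exact 95% Poisson intervals, which cover counting error only and are smaller than the points for Ccl24, and blue lines are each sample's background. Ccl17 and Ccl22 lay below background in 2 of 3 IRF5-NP samples, and Ccl24 lay between 2210 and 9417 normalized counts.

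Ccl22 and Ccl17 lie on chromosome 8 with Cx3cl1, the gene of fractalkine, between them, according to the RefSeq gene order. The 250 bases before the start of each gene are shown because the pair is known for its response to interleukin-4, and capitals mark the matches to the motifs searched on both strands. The sequences are from RefSeq, build GRCm38.p6, plus strand, at chr8:94810203-94810452 for Ccl17 and chr8:94745434-94745683 for Ccl22.
Ccl17: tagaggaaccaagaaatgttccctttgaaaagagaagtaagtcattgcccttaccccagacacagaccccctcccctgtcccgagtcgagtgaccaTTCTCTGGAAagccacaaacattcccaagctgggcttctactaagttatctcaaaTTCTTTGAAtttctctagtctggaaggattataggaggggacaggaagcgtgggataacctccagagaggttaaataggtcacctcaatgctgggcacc
Ccl22: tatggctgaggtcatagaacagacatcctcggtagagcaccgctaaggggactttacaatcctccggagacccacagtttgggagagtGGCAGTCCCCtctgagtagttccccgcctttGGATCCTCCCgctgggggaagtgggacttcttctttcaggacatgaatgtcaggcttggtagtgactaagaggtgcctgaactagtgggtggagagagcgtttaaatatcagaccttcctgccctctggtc

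The Ccl17 window held TTCTCTGGAA, a match to the STAT6 motif (TTC and GAA with any 4 bases between), 154 bases before the start. It also held TTCTTTGAA, a match to the general STAT motif (TTC and GAA with any 3 bases between), 99 bases before the start. The Ccl22 window held neither of these, and had 2 matches on the minus strand to the NF-κB motif (GGG and CC with any 5 bases between). No match overlapped another. The motifs were chosen with these letters in view, and a match is a description, not a binding site. Among 27025 windows of the same length, 1 per gene, 5.87% held the first motif, 7.18% the second and 45.4% the third. The IRF motif (GAAA and GAAA with any 2 bases between), in 3.04% of the windows, and the TATA box TATAAA, in 13%, were not found in these letters of either gene.

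Ccl17 was measured at the edge of detection. Its normalized counts were 103, 44.5 and 37.6 in PBS replicates 1, 2 and 3, and 32.4, 35.3 and 54.6 in IRF5-NP replicates 1, 2 and 3. The groups overlapped, and PBS replicate 1 was the highest value, with a counting interval of 83.4 to 125. All 3 PBS samples and 1 of 3 IRF5-NP samples lay above background, and the value of IRF5-NP replicate 3 rested on 21 counts. The means were 71.8 ± 43.6 with PBS (SD, n = 2) and 40.7 ± 12.1 with IRF5-NPs (SD, n = 3). The log2 fold change was -0.70 (standard error 0.45, 95% confidence interval -1.74 to 0.35, limma adjusted p = 0.412). The lower mean rested on PBS replicate 1, since without it the log2 fold change was -0.04 (adjusted p = 0.974).

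Ccl22 had normalized counts of 179, 80.7 and 80.1 in PBS replicates 1, 2 and 3. It had 62.8, 23.2 and 62.4 in IRF5-NP replicates 1, 2 and 3. Every IRF5-NP value lay below every PBS value, as was the case for 20.4% of all genes in that direction. The counting interval of IRF5-NP replicate 1 (48.6 to 79.9) nevertheless overlapped those of PBS replicates 2 (63.8 to 101) and 3 (61.7 to 102). That of IRF5-NP replicate 3 (40.0 to 92.8) contained the values of both, so that counting error alone does not separate these samples. The values of IRF5-NP replicates 2 and 3 were 21 and 24 counts, below background, so that they mark an upper limit more than a level. The means were 130 ± 70.0 with PBS (SD, n = 2) and 49.4 ± 22.8 with IRF5-NPs (SD, n = 3). The log2 fold change was -1.40 (standard error 0.53, 95% confidence interval -2.62 to -0.17), and its p of 0.0303 in limma did not hold after adjustment (adjusted p = 0.142). An exact permutation test on the same 5 samples gave p = 0.1, the smallest it allows. With the mean of the negative controls taken off each sample it was -2.53 (adjusted p = 0.300), without PBS replicate 1 it was -0.82 (adjusted p = 0.653), and without IRF5-NP replicate 2 it was -0.93 (adjusted p = 0.272).

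Ccl24 was far above background in all 6 samples, on 2131 to 7764 counts. Its normalized counts were 2210, 4821 and 4844 in PBS replicates 1, 2 and 3. They were 2841, 8559 and 9417 in IRF5-NP replicates 1, 2 and 3. IRF5-NP replicates 2 and 3 were above every PBS sample, whereas IRF5-NP replicate 1 was below PBS replicates 2 and 3, so that the groups overlapped. The means were 3521 ± 1855 with PBS (SD, n = 2) and 6939 ± 3574 with IRF5-NPs (SD, n = 3). The log2 fold change was 0.90 (standard error 0.56, 95% confidence interval -0.39 to 2.20, limma adjusted p = 0.387). Counting error was small here, and the spread between samples of a group set the precision. On the log2 scale, replicate 1 minus the mean of the others of its group was -1.13 with PBS and -1.66 with IRF5-NPs, each larger in size than the difference between the groups. Without IRF5-NP replicate 1 the log2 fold change was 1.46 (adjusted p = 0.0805), without PBS replicate 1 it was 0.34 (adjusted p = 0.894), and without IRF5-NP replicate 3 it was 0.59 (adjusted p = 0.674). With the samples scaled to the positive control probes it was 0.04 (adjusted p = 0.982), a scaling that moved the median of all genes from -0.03 to -0.88. The geometric mean of the positive controls was 1163 counts in PBS replicate 1 and 1793 to 2816 in the other samples.

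Whether the chemokines changed unequally was read from the log2 difference between a pair within each sample, in which the scaling between samples cancels. The log2 value of Ccl22 minus that of Ccl24 was -4.75 ± 1.61 with PBS (SD, n = 2) and -7.05 ± 1.5 with IRF5-NPs (SD, n = 3). By sample it was -3.62, -5.88 and -5.90 in PBS replicates 1, 2 and 3, and -5.48, -8.47 and -7.22 in IRF5-NP replicates 1, 2 and 3. IRF5-NP replicate 1 lay among the PBS samples in this measure, and the shift of -2.30 gave p = 0.3 in a two-sided exact permutation test. Ccl17 minus Ccl24 shifted by -1.60 and Ccl17 minus Ccl22 by 0.70, with p = 0.3 for each in the same exact permutation test. Over the 3 pairs the adjusted p was 0.3, and the 10 splits of 5 samples allow no p below 0.1. A difference between the chemokines was therefore not shown by this design.

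The panel held 21 CC chemokines, and Ccl24 had the highest log2 fold change of them, with a confidence interval that spans 0. Of the other 18, 6 fell, 0 rose and 12 did not pass the test, whereas 7.03% of all genes fell and 2.52% rose. The median log2 fold change of the 18 was -0.43, against -0.03 over all genes. The 6 that fell were the monocyte attractants Ccl2, Ccl7, Ccl8 and Ccl12 and the macrophage inflammatory protein genes Ccl3 and Ccl4, with log2 fold changes between -3.64 for Ccl7 and -2.61 for Ccl8. Of the 12 that did not pass, 6 lay below background in every sample. Among those above it, Ccl6 had -0.53 (adjusted p = 0.418) and Ccl9 had -0.40 (adjusted p = 0.608), and Ccl5, the attractant of T cells and a further ligand of CCR3, had -0.28 (adjusted p = 0.766).

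**Figure D2:**
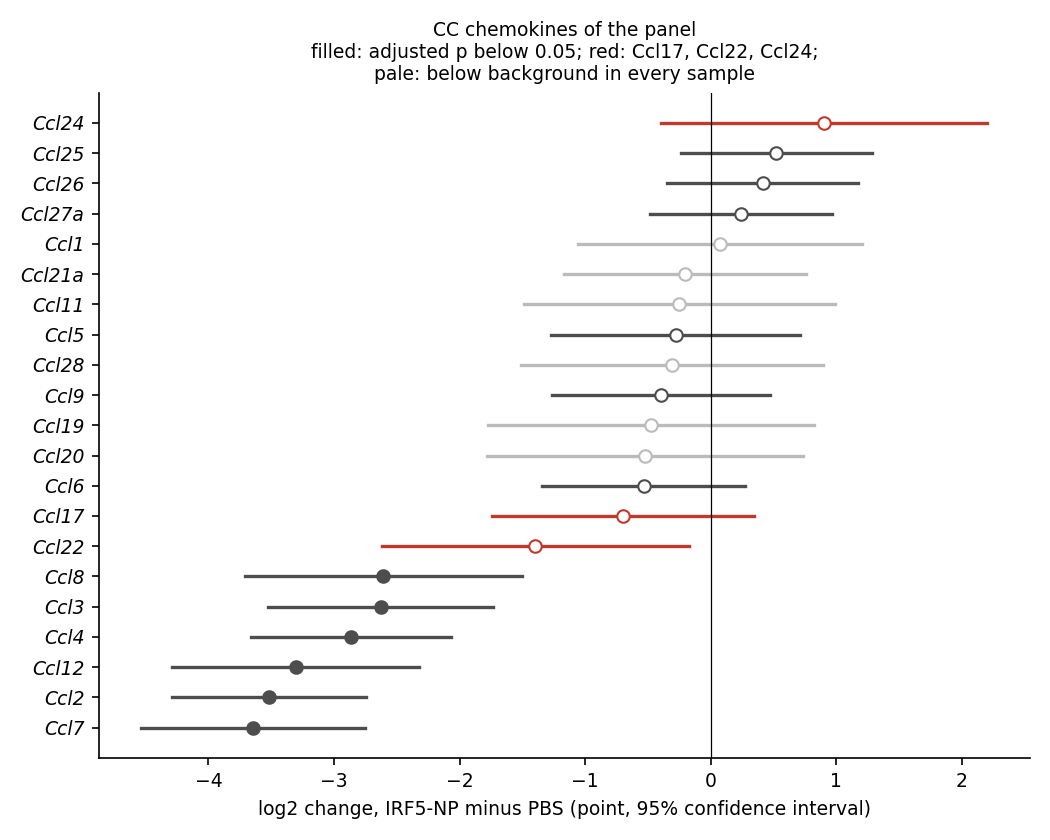
log2 change of the 21 CC chemokines of the panel, IRF5-NP minus PBS, with the 95% confidence interval of limma's fit on 2 PBS and 3 IRF5-NP samples. Filled points passed the adjusted threshold, red marks Ccl17, Ccl22 and Ccl24, and pale marks the 6 genes below background in every sample. Ccl22 at -1.40 lies between the 6 genes that fell and the rest, and Ccl24 at 0.90 is the highest.

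The receptors of these chemokines were below background in every sample, Ccr4 at 8.82 to 29.0 and Ccr3 at 13.8 to 33.8 normalized counts. A change in them was not detectable at this depth. Besides Ccl24 and Ccl5, the panel measured 4 ligands that can bind CCR3, and of the 5 other than Ccl24 only Ccl7 passed, as lower. It was at 2814 ± 351 with PBS (SD, n = 2) and at 244 ± 128 normalized counts with IRF5-NPs (SD, n = 3). Ccl11, the eotaxin that gives the group its name, was at 5.51 to 18.2 normalized counts and below background in every sample. Cx3cl1, which lies between Ccl22 and Ccl17, had 69.5, 65.2 and 51.3 normalized counts in PBS replicates 1, 2 and 3. It had 103, 80.5 and 107 in IRF5-NP replicates 1, 2 and 3. It was thus higher in every IRF5-NP sample, as were 17% of all genes, with a log2 fold change of 0.59 (adjusted p = 0.225). Ccl26, the neighbor of Ccl24 on chromosome 5, was at 20.7 to 36.4 normalized counts, with a log2 fold change of 0.41 (adjusted p = 0.515). Only its value in IRF5-NP replicate 2, 32.0, lay above the background of its sample.

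Upstream of the chemokines, 6 of 13 genes of interleukin-4 and interleukin-13 signaling were measured, and 0 passed the test, against 9.55% of all genes. Their median log2 fold change was -0.08. Il4ra, the receptor subunit shared by both cytokines, had 4378, 2700 and 2636 normalized counts in PBS replicates 1, 2 and 3. It had 1892, 1660 and 1476 in IRF5-NP replicates 1, 2 and 3. Every IRF5-NP value was below every PBS value, as was the case for 20.4% of all genes. The log2 fold change of -1.03 (95% confidence interval -1.65 to -0.41) lay at the edge of the threshold (limma adjusted p = 0.0503). Il4ra passed when all 6 samples were kept separate (adjusted p = 0.0350), a fit in which 16% of all genes passed, 4.91% as higher and 11.1% as lower. That fit counts PBS replicates 2 and 3 separately, although they could not be told apart beyond sampling noise. Stat6, the transcription factor that the receptor activates, was at 1833 ± 208 with PBS (SD, n = 2) and 1769 ± 233 normalized counts with IRF5-NPs (SD, n = 3). Socs1, an inhibitor of this signaling, had a log2 fold change of -0.97 (adjusted p = 0.244). The cytokine genes Il4 and Il13 were below background in every sample. Of the GM-CSF signaling genes with Irf4, a pathway that also induces Ccl17, 5 of 9 were measured and 0 passed. Irf4 was at 51.9 ± 1.33 with PBS (SD, n = 2) and 67.0 ± 4.52 normalized counts with IRF5-NPs (SD, n = 3), a log2 fold change of 0.36 (adjusted p = 0.482). The receptor gene Csf2ra had 0.49 (adjusted p = 0.160). It passed as higher in the fit on 6 separate samples (adjusted p = 0.0451), as did 4.91% of all genes. Of the alarmins and their receptors 3 of 6 were measured, 2 of them below background in every sample, and 0 passed.

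Of 23 other genes of alternative activation 17 were measured, of which 4 fell, 0 rose and 13 did not pass. Over all genes 7.03% fell and 2.52% rose. The median log2 fold change of the 17 was -0.89, against -0.03 over all genes. The 4 that fell were the chitinase-like genes Chil3 (-5.23) and Chil4, the interleukin-1 antagonist Il1rn (-1.25, adjusted p = 0.0360) and the adhesion gene Cdh1. Cdh1 lay below background in IRF5-NP replicates 1 and 3, at 35.2 and 36.4 normalized counts. Mrc1, the mannose receptor that the nanoparticles are built to bind, had -2.02 (adjusted p = 0.0664). The arginase gene Arg1 had -0.47 (adjusted p = 0.635), and Retnla, a further gene induced by interleukin-4, had 0.11 (adjusted p = 0.841). Alox15, a lipoxygenase gene that is induced by interleukin-4 and is also high in resident peritoneal macrophages, had 1.61 (adjusted p = 0.0881). It was higher in every IRF5-NP sample, as were 17% of all genes.

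Each sample measures many cells together, so that fewer cells of a type and less RNA per cell cannot be told apart. The counts of markers stand beside 2.52% of all genes that passed as higher and 7.03% as lower. Of 9 measured markers of resident peritoneal macrophages, 3 rose, Timd4, Selp and Cxcl13, and 0 fell, with a median log2 fold change of 1.61. The summed level of all 9 was 47333 to 88556 normalized counts with PBS and 111796 to 206358 with IRF5-NPs. This sum includes the sorting genes Adgre1 and Itgam and also Fn1, none of which passed. Its part in the Ccl24 values was not tested. Adgre1 itself had 6523, 9145 and 9049 normalized counts in PBS replicates 1, 2 and 3. It had 8749, 25506 and 22544 in IRF5-NP replicates 1, 2 and 3, so that it was low in the same samples as Ccl24 (log2 fold change 1.15, adjusted p = 0.181). Of 12 measured dendritic cell markers, 2 fell, Itgax (-1.88, adjusted p = 0.00589) and Cd83 (-1.48, adjusted p = 0.0361), and 0 rose, with a median of -0.35. The summed level of all 12 was 2502 to 3395 with PBS and 1554 to 1788 with IRF5-NPs, and its part in the Ccl17 and Ccl22 values was not tested. Ccr7, the receptor of migrating dendritic cells, had -1.06 (adjusted p = 0.218), and the dendritic cell genes Xcr1 and Lamp3 were below background in every sample.

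Of 7 measured monocyte markers 1 fell, Chil3, and 0 rose, and of 10 neutrophil markers 1 rose, Csf3r, and 1 fell, Mmp8. Over all genes 2.52% rose and 7.03% fell, so that single genes of lists this short do not set them apart. Of 8 mast cell and basophil markers 2 rose, Cpa3 and Hdc, and 0 fell, with a summed level of 267 to 389 with PBS and 656 to 1012 with IRF5-NPs. Cpa3 was below background in every PBS sample, at 8.3 to 15.5 normalized counts, and in IRF5-NP replicate 3, at 39.0. The eosinophil list, whose cells carry CCR3, had 6 measured markers, of which 4 were below background in every sample and 0 passed. The single measured B cell marker, Ms4a1, rose. It was at 21.7 ± 5.99 with PBS (SD, n = 2) and at 62.1 ± 12.5 normalized counts with IRF5-NPs (SD, n = 3). Ms4a1 was below background in every PBS sample, at 16.3 to 25.9. It was also below background in IRF5-NP replicate 3, where the background was 79.4 and no IRF5-NP value exceeded 75.4. The single measured NK cell marker was below background in every sample. The single measured gene of the tumor and mesothelial list was Cdh1, and no T cell marker was measured. The part of these cells in the chemokine values was not tested.

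The genes that followed each chemokine most closely over the 6 samples differed between them. Likeness was the root-mean-square difference of log2 values after each gene's mean over the samples was taken off, among 559 other genes above background on average, and it is a description over samples of which PBS replicates 2 and 3 count as 1. Closest to Ccl24 were Prok2, the gene of a secreted prokineticin (0.13 on the log2 scale), the integrin gene Itgb7 (0.22) and the adhesion gene Alcam (0.25). None of these 3 passed the test, with log2 fold changes from 0.80 for Alcam to 1.18 for Itgb7. Closest to Ccl22 were S100a8, a calprotectin subunit (0.31), the leukotriene B4 receptor gene Ltb4r1 (0.33), Ccr7 (0.35) and the activation marker Cd69 (0.37). Of these Cd69 fell, with a log2 fold change of -1.74 (adjusted p = 0.0238). Cd69 at 46.8 and Ccr7 at 49.4 normalized counts lay below background in IRF5-NP replicate 3. Closest to Ccl17 were Tnfsf9 (0.20), Apoe (0.21), Lst1 (0.21) and Ccl6 (0.23), of which none passed. Ccl17 was at rank 44 of the 559 for Ccl22, and Ccl22 at rank 244 for Ccl17, at a distance of 0.58. Ccl24 was at rank 531 for Ccl22 and at rank 511 for Ccl17.

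**Figure D3:**
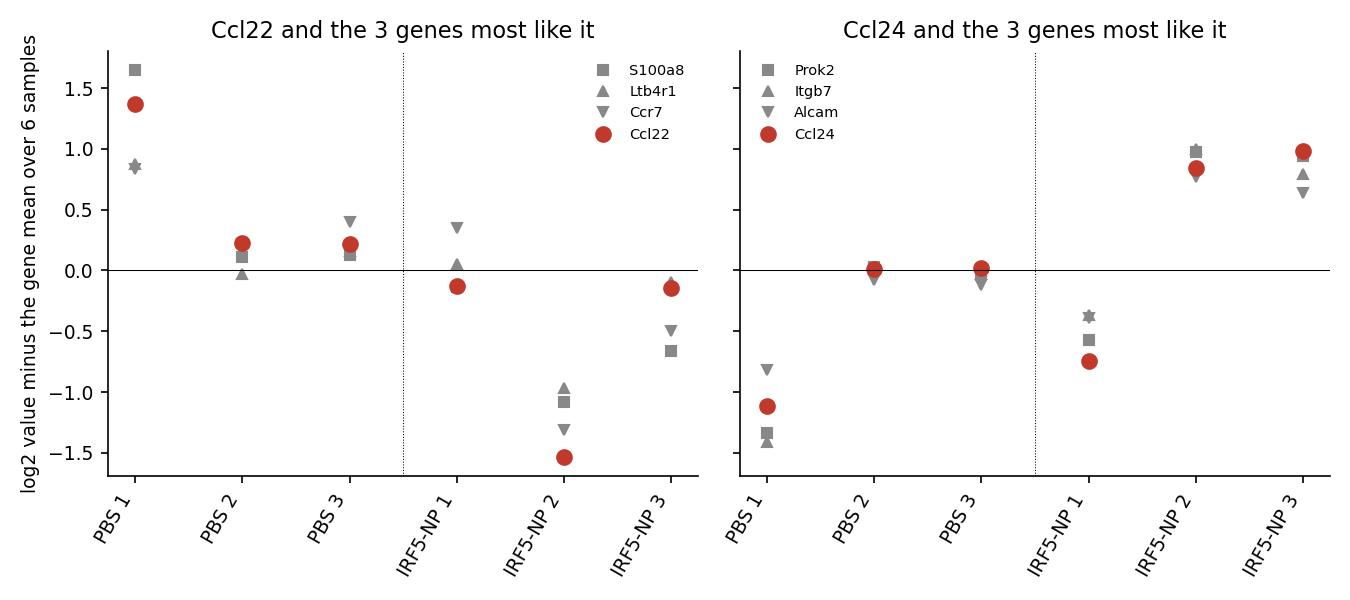
log2 values of Ccl22 and Ccl24 (red) and of the 3 genes most like each (gray) in the 6 samples, each gene minus its own mean, with a dotted line between the groups. Ccl24 was lowest in PBS replicate 1, with IRF5-NP replicate 1 next, whereas Ccl22 was highest in PBS replicate 1 and lowest in IRF5-NP replicate 2.

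The 3 changes were refitted under 19 other settings, of which 18 were tested, and none of the 3 passed the adjusted threshold in any of them. The lowest adjusted p was 0.308 for Ccl17, 0.0517 for Ccl22 and 0.0549 for Ccl24.

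**Figure D4:**
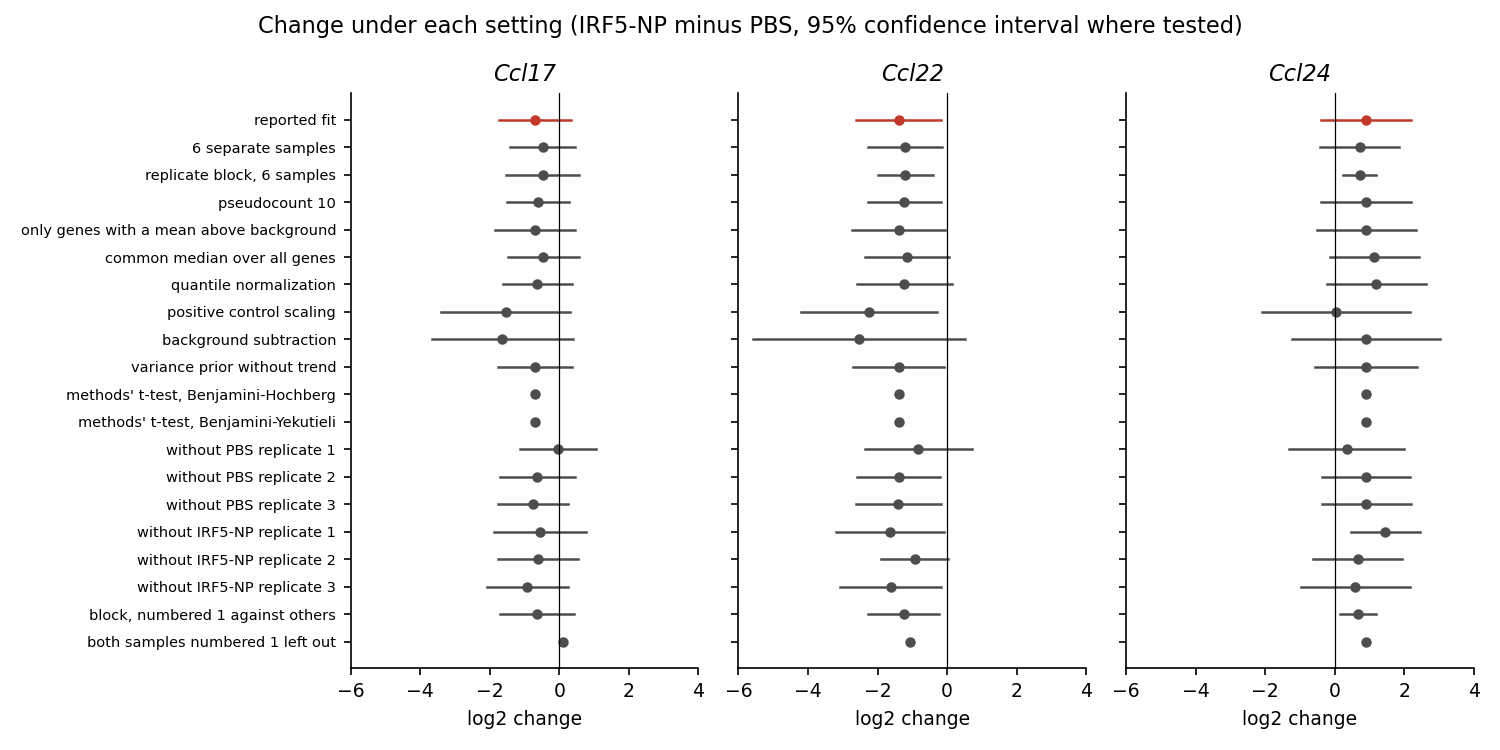
log2 change of Ccl17, Ccl22 and Ccl24, IRF5-NP minus PBS, in the reported fit (red) and under 19 other settings (gray), with 95% confidence intervals where limma gave them. Ccl22 stayed below 0, between -2.53 and -0.82, and Ccl24 above 0, between 0.04 and 1.46, while Ccl17 ranged from -1.64 to 0.10.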

How the data were processed

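Gene expression was measured on 6 samples of sorted peritoneal macrophages, grouped by their titles. The deposited values are a signal on a linear scale, nCounter counts that the authors scaled by 1 factor per sample, which the study's methods describe for cultured macrophages as normalization to housekeeping genes in nSolver. The control probes are raw counts. The factors were recovered with a tolerance of 0.01 normalized counts for 754 of 754 genes, and gave the depth, the counting intervals and the background. The log2 values, taken after a pseudocount of 1 was added, were compared with limma 3.58.1 in R 4.3.3 (lmFit, eBayes with trend, two-sided, Benjamini-Hochberg over all 754 genes, threshold 0.05), after a check on simulated data. p-values measure the spread between these samples, which may be technical. The chemokines, gene lists and genes to be named (list members, and the 4 genes most like each chemokine, of which 1 is not reported here) were chosen with earlier results of these data known. Gene order and sequences came from RefSeq, where 744 gene symbols matched directly and 9 by synonym. Permutation tests and figures used Python 3.11.15 with scipy 1.17.1 and matplotlib 3.10.9.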

Additional observations from a re-analysis of the deposited data

How the results depend on the processing

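Across 19 other settings per gene, Ccl22 and Ccl24 kept their direction and did not pass, and Ccl17 moved once, to 0.10 with both samples numbered 1 left out. That setting, and a block of the samples numbered 1 against the others, were chosen after seeing the data. Leaving both out is given without a test, since the spread would come from 2 IRF5-NP samples; this was decided after that fit had been seen. When single samples were left out, the log2 fold change lay between -0.92 and -0.04 for Ccl17, -1.63 and -0.82 for Ccl22, and 0.34 and 1.46 for Ccl24. The number of genes past the threshold, 72 here, was 121 with 6 separate samples, 135 with the replicate block on these, 133 with the block of the samples numbered 1, 41 without a variance trend, 24 with background subtraction and 14 with positive control scaling. It was 0 with the methods' t-test under Benjamini-Hochberg or Benjamini-Yekutieli adjustment (125 genes at an unadjusted p under 0.05, against 191 by limma), and lay between 21 and 83 with single samples left out (35 when PBS replicate 1 was dropped, 41 when IRF5-NP replicate 2 was dropped and 21 when IRF5-NP replicate 3 was dropped). The cause was not tested, and leaving out a sample other than PBS replicates 2 and 3 also left fewer samples in the fit. Deviations of equally numbered samples correlated across 560 genes at 0.222, 0.246 and 0.0957 for numbers 1, 2 and 3. PBS replicate 1 had -0.241 and -0.101 with IRF5-NP replicates 2 and 3. PBS replicate 3 correlated best with IRF5-NP replicate 2. Since PBS replicates 2 and 3 could not be told apart, that match cannot speak against a pairing. The check left the pairing undecided, and the numbers were not taken to pair the samples. With the replicate block the log2 fold change was -0.48 for Ccl17, -1.20 for Ccl22 and 0.72 for Ccl24 (adjusted p = 0.527, 0.0517 and 0.0549 in limma). That fit counts PBS replicates 2 and 3 separately, and in it 52 of all 754 genes passed as higher and 83 as lower. The reported fit had 19 and 53. With the block, 7 resident macrophage markers passed as higher in place of 3. Of the genes of alternative activation, 7 passed as lower in place of 4 and 1 as higher, Alox15 (adjusted p = 0.0358). Adgre1 (0.0481), Il4ra (0.0142) and the genes most like Ccl24, Prok2 (0.0245), Itgb7 (0.00855) and Alcam (0.0317), passed as well. The shifts within pairs of chemokines kept their direction under all 10 other settings. Their p was 0.25 or more by exact permutation or, for the replicate block, by flipping the signs of differences between equally numbered samples. The block allows no p below 0.25, and leaving out an IRF5-NP sample allows none below 0.333. These p-values therefore cannot show that a shift is absent. The count tests that had been planned were not run, since in the 3 IRF5-NP samples the recovered counts did not meet the criterion set for them. Depth limits Ccl17 and Ccl22, which rest on 21 to 173 counts.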

Other observations

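The direction of the Ccl24 change depended on the gene it was set against, and no direction was shown by a test. Its mean log2 level after IRF5-NPs was lower against Adgre1, the gene of the F4/80 antigen used for sorting, and higher against the other genes given below. The ratio of Ccl24 to Adgre1 normalized counts, chosen after the values were seen, was 0.339, 0.527 and 0.535 in PBS replicates 1, 2 and 3. It was 0.325, 0.336 and 0.418 in IRF5-NP replicates 1, 2 and 3. The log2 difference of -0.25 gave p = 0.5 in a two-sided exact permutation test, in which 0.1 is the smallest p possible. Against Itgam, the gene of CD11b, the log2 difference was 0.29 (exact permutation p = 0.6), and against Csf1r, the gene of the macrophage growth factor receptor, it was 0.87 (exact permutation p = 0.4). The ratios compare probes whose efficiencies are not known, so that only their change between samples can be read.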
